A study of Mus musculus with 8 samples.

Results

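Open chromatin was described around 8 genes that lie on mouse chromosome 6. They are Cd69 and the C-type lectin receptor genes Clec2d, Clec7a, Clec12a, Clec4n, Clec4d, Clec4e and Clec4a2. The members were the ATAC-seq peaks that overlapped a gene body or the 20 kb on either side of it (mm10, GENCODE M21), merged over libraries where they shared at least 1 base. This gave 47 regions of the 82424 in the series. Of the 47 regions, 5 were found in a single library and 42 in 2 or more, of which 29 were open in all 8. Peaks came from alveolar macrophages (AMs), the resident phagocytes of the airspaces, sorted from the lavage of adult mice on the C57BL/6J background. The sample titles say only AMs. The paper's main text calls the cells mature in both genotypes, while some supplementary captions name the KO cells immature AMs. A difference in maturity between the genotypes was not tested. The 4 KO libraries, numbered 1_2, 1_3, 2 and 3, were from Cd11cCre+ Rxrab fl/fl animals, and the 4 WT libraries, numbered 1_2, 1_3, 3 and 4, were from Rxrab fl/fl littermates without Cre. Every animal thus carried floxed Rxra and Rxrb, the genes of the retinoid X receptors RXRα and RXRβ, and Cre was driven by Cd11c, a gene also active in dendritic cells, so the deletion is not limited to AMs.

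C-type lectin receptors are surface proteins with a shared sugar-binding fold, many of which bind microbial glycans or products of dying cells. Clec7a (Dectin-1) binds fungal beta-glucan and signals through Syk by its own tail. Clec4n (Dectin-2), Clec4d (MCL) and Clec4e (Mincle) bind mannans or mycobacterial glycolipids and signal through the Fc receptor gamma chain. Clec4a2 (DCIR) and Clec12a carry inhibitory motifs in their tails. Clec2d is the ligand of an inhibitory natural killer cell receptor of the Klrb1 family, and Cd69 is an early activation marker that keeps lymphocytes in tissue by binding a sphingosine phosphate receptor. RXRs bind DNA as dimers with partners such as PPARγ, classically at direct repeats of the hexamer AGGTCA. With 1 base between the repeats the element is called DR1.

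The genes formed 2 groups on the chromosome. Clec4a2, Clec4n, Clec4d and Clec4e lay within 183 kb (chr6:123106428-123289870), and Clec2d, Cd69, Clec12a and Clec7a lay within 292 kb (chr6:129180615-129472779). The windows around Clec4n, Clec4d and Clec4e overlapped, so a region between them belongs to more than 1 gene and was counted once.

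Sequence is shown first for the 3 regions that were called different between KO and WT and for the region in which the genotypes differed most in the number of libraries with a peak. Each run is 201 bases of the plus strand of GRCm38 (mm10) centred on the summit of the strongest peak, from chr6:129476926-129477126, chr6:129163696-129163896, chr6:129273741-129273941 and chr6:129357439-129357639 in that order. Capitals mark letters of a searched motif on either strand. They are a C/EBP core (TTGCNNAA) in the Clec7a window, a RUNX core (TGTGGT, read as its reverse complement in the Cd69 window) in the Clec2d and Cd69 windows, and a DR1 in the Clec12a window.
Clec7a, 4.2 kb upstream: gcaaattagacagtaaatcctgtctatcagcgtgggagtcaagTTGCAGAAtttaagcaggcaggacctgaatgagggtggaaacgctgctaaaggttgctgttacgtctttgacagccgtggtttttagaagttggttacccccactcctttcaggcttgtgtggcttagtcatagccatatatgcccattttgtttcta
Clec2d, 16.8 kb upstream: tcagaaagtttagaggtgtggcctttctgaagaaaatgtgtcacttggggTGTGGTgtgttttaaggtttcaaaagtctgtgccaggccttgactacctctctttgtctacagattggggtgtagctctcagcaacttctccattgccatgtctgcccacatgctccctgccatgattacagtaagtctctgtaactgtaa
Cd69, intron: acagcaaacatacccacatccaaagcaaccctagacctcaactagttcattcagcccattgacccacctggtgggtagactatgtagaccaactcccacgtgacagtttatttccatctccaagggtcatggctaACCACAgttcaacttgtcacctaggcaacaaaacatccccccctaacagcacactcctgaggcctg
Clec12a, intron: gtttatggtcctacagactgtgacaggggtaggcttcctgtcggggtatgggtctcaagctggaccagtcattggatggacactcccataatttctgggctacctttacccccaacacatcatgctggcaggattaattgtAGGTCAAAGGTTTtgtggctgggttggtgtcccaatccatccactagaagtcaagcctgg
The Clec12a window held AGGTCAAAGGTTT, which matches AGGTCANAGGTCA with 2 mismatches and whose first 6 bases are the AGGTCA hexamer itself. It was the only match to DR1 at up to 2 mismatches in the 42 regions found in 2 or more libraries (2.38%, against 4.13% of 72711 such windows over the genome). The letters describe the window and are not evidence that a factor sits there.

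The 250 bases before the RefSeq start site (GRCm38.p6, strand of the gene) are shown for 2 neighbouring genes of the Clec4 group, because Clec4e had a peak at its start site in all 8 libraries and Clec4d had none within 1 kb in any. They come from chr6:123289872-123290121, minus strand, and chr6:123261857-123262106, plus strand. Capitals mark a PU.1 core (GAGGAA or its reverse complement), the RUNX and C/EBP cores and a TATA box (TATAAA).
Clec4e promoter: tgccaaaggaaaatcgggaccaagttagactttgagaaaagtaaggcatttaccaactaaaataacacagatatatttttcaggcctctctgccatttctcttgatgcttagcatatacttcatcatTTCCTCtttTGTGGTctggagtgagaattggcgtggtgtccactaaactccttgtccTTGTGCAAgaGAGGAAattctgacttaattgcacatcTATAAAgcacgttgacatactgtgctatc
Clec4d promoter: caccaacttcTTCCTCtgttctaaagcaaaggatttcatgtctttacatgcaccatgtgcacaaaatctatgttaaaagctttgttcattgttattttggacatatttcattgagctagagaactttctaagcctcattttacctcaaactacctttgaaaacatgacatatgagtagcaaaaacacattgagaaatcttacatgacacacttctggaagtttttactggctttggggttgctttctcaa
The PU.1 core was found in both promoters, and the RUNX, C/EBP and TATA letters were found in that of Clec4e. Among 32851 RefSeq promoters of the same length and in the same order of motifs, 23.3%, 14.0%, 9.56% and 12.4% held the letters. Promoter sequence was matched for 6 of the 8 genes, and all 6 were poor in G and C, at 35.2% to 44.8% against a median of 52.4% over all promoters. Of the 6, Clec2d alone held the AGGTCA hexamer, which 14.0% of all promoters held, and it held no other marked letters. Clec7a held the PU.1 core alone, as Clec4d did, and Clec4a2 the TATA letters alone. Clec12a held PU.1, RUNX and C/EBP cores and an AP-1 match (TGANTCA), but no TATA letters. The start sites of Clec2d, Clec7a, Clec4a2 and Clec12a also had a peak in all 8 libraries. At Clec4a2 this region (chr6:123123082-123123667) lay past the end of the promoter window (chr6:123122440-123122689). Its summit was 25 bases from another start site of the gene. A link between these letters and opening was not tested.

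Values are summit tags, the number of Tn5 cut tags extended to 200 bp that overlap at the top of a peak, worked back to whole numbers from the fold and the p-value of the peak. Between libraries they were scaled so that the median over the 47499 regions open in all 8 was equal. Lists held 60363 to 65009 peaks in KO and 61240 to 72484 in WT, the genomic background was 1.125 to 1.86 and 1.419 to 2.256 tags per 200 bp, and the smallest summit was 6 to 9 tags. KO 1_2 and KO 1_3 differed by no more than counting noise (chi-square per degree of freedom 0.98), as did KO 2 and KO 3 (1.01), whereas the other KO pairs gave 1.10 to 1.28 and the WT pairs 1.12 to 1.99. No source read here says whether they came from 1 animal, so called regions are given also with KO 1_2 and KO 1_3 counted as 1 sample. If the libraries of a genotype are not from separate animals, the p-values measure only the spread between libraries. At the deleted genes, an intron region of Rxra (chr2:27744546-27744950) had 38, 46, 38 and 42 tags in the WT libraries and no peak in any KO library, while the start sites of Rxra and Rxrb were open in all 8. Whether the intron region lies in the floxed part was not tested. At Xist 2 regions had peaks in the 4 KO libraries alone. The sex of each library is not given, so sex and genotype cannot be told apart. The genes described here are autosomal, but a difference by sex at them was not tested. Of 11 start sites of AM marker genes, 9 had a peak in every library, Chil3 and Krt79 having none. Markers of T and natural killer cells had a peak at 2 of 12 start sites in every library (Cd2, which AMs also express, and Klrb1c), with none at Cd3e, Cd3d, Cd3g, Lck or Ncr1. B cell start sites had 0 in KO and 0 to 1 of 6 in WT. Neutrophil ones had 2 of 7 in both (S100a8 with up to 220 tags and Cxcr2 with up to 75). Dendritic cell ones had 2 of 6 in both (Zbtb46 with up to 116 tags and Flt3 with up to 49). Monocyte and interstitial macrophage ones had 3 to 5 of 7 in KO and 4 to 5 in WT. Epithelial ones had 3 to 4 of 8 in both. Scgb1a1 (up to 99 tags), Epcam (32) and Cdh1 (36) had a peak in every library. Of these genes, the paper names Cdh1 as an AM-core gene. The part of other cells in the results was not tested, and a smaller share of cells with a region open cannot be told apart from less opening per cell.

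The start sites were open in both genotypes. A region with its summit within 1 kb of the start site was present in all 8 libraries for 7 of the 8 genes. None of these 7 regions was called between KO and WT (limma on log2 tags, adjusted p under 0.05), against 12.8% of all regions tested. With only 7 regions, a count of 0 is close to that share. By limma 1 had an unadjusted p under 0.05, and by an exact permutation test 0 did. The shares of all regions under these criteria were not worked out. Of the 7 differences, KO minus WT, 6 were positive and 1 was negative.

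At the Clec12a start site (chr6:129349553-129350466, in an exon) the KO libraries had 182, 152, 174 and 136 tags and the WT libraries 189, 210, 187 and 121. At that of Clec7a (chr6:129472523-129473083) they had 189, 160, 179 and 138 tags in KO and 169, 178, 182 and 141 in WT. These receptor genes had the most open start sites of the set, with a scaled mean over the 8 libraries of 167 ± 19.2 and 167 ± 20.5 (SD) tags, both near the 83rd percentile of all regions open in every library, and Clec12a was above Clec7a in 3 of the 8 libraries, so their order was not resolved. Clec7a was above the next gene, Clec4a2, in 6 of 8. For Clec7a the KO minus WT difference was 0.20 on the log2 scale (95% CI 0.01 to 0.40, adjusted p = 0.170), the smallest adjusted p of the 7.

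Clec4a2, the inhibitory receptor gene of the Clec4 group, followed with 159, 137, 131 and 118 tags in KO and 159, 199, 182 and 102 in WT (chr6:123123082-123123667). Clec4e had 139, 136, 110 and 104 tags in KO and 155, 163, 145 and 109 in WT (chr6:123289470-123290399). Clec2d had 131, 97, 110 and 121 tags in KO and 96, 129, 124 and 112 in WT (chr6:129180284-129181166). The KO and WT ranges overlapped at all 3 genes. Scaled means over the 8 libraries were 146 ± 15.6, 131 ± 10.1 and 116 ± 18.5 tags; Clec4a2 was above Clec4e in 7 of 8 libraries and Clec4e above Clec2d in 5, so the last pair was within its spread.

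Clec4n had 93, 80, 89 and 83 tags in KO and 92, 114, 100 and 68 in WT (chr6:123229628-123230063). The start site of Cd69 was the least open of the 7, with 53, 56, 40 and 36 tags in KO and 46, 61, 40 and 39 in WT (chr6:129275224-129275604), a scaled mean of 46.0 ± 6.14 tags and the 34.5th percentile of the regions open in every library. Clec2d was above Clec4n and Clec4n above Cd69 in all 8 libraries. The KO minus WT differences of Clec2d, Clec4n and Cd69 were 0.21, 0.12 and 0.21 on the log2 scale with adjusted p of 0.251, 0.551 and 0.430, and those of Clec4a2, Clec4e and Clec12a were 0.01, -0.01 and 0.10. The 95% CI for Cd69 ran from -0.11 to 0.52.

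**Figure D1:**
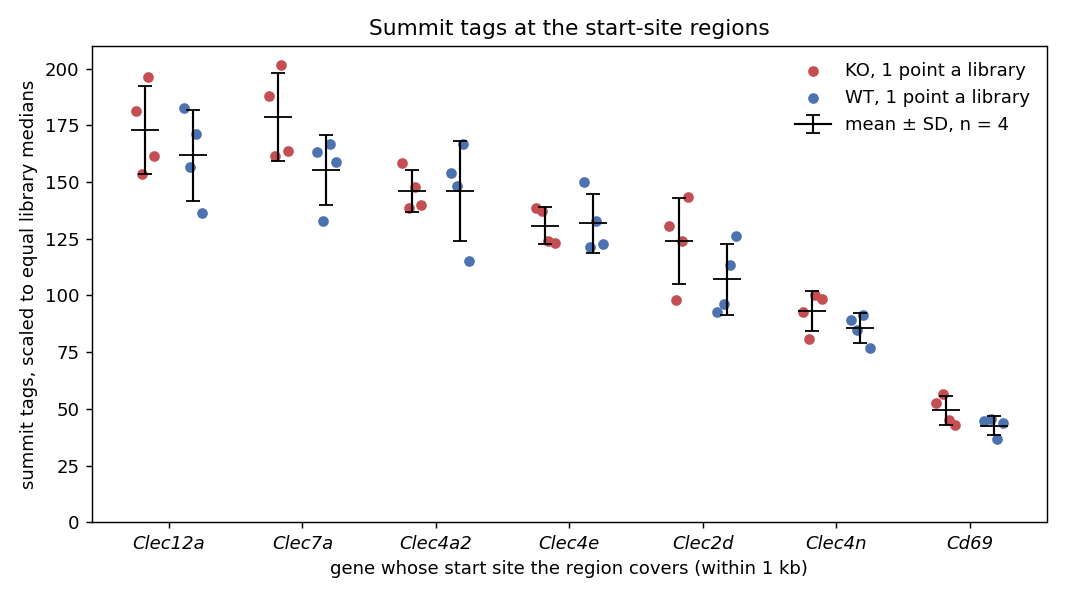
Scaled summit tags (y axis, linear, from 0) in each library at the 7 start-site regions, with KO and WT side by side for each gene and the mean ± SD of 4 libraries. The points of KO and WT overlap at every gene, and the levels fall from 167 tags at Clec12a and Clec7a to 46.0 at Cd69.

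Clec4d, the partner of Clec4e in glycolipid recognition, had no peak within 1 kb of its start site, but was surrounded by open regions. The nearest, 1.7 kb upstream (chr6:123259755-123260662), had 124, 131, 90 and 81 tags in KO and 128, 155, 140 and 101 in WT. A region in its intron, 3.9 kb downstream of the start (chr6:123265838-123266350), was the strongest of all 47, with 223, 248, 189 and 161 tags in KO and 209, 251, 210 and 185 in WT, at the 88.8th percentile of the regions open in every library. Neither was called, with log2 differences of -0.10 (adjusted p = 0.618) and 0.14 (adjusted p = 0.305).

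Of the 29 regions tested, limma called 3 (10.3%), 2 lower and 1 higher in KO. Over all 47499 regions it called 12.8% (6096), with 7.03% (3337) lower and 5.81% (2759) higher in KO, so the share among these genes was close to the background. The genome-wide balance moved with the scaling, to 3877 lower and 2100 higher with total tags and to 1991 lower and 575 higher with the genomic background as depth. The median log2 difference was 0.03 over the 29 regions and 0.04 over all, and 17 of the 29 were positive. KO and WT scaled tags did not overlap at 2 of the 29, against 16.2% of all regions. The 26 regions that were not called had differences between -0.36 and 0.28.

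**Figure D2:**
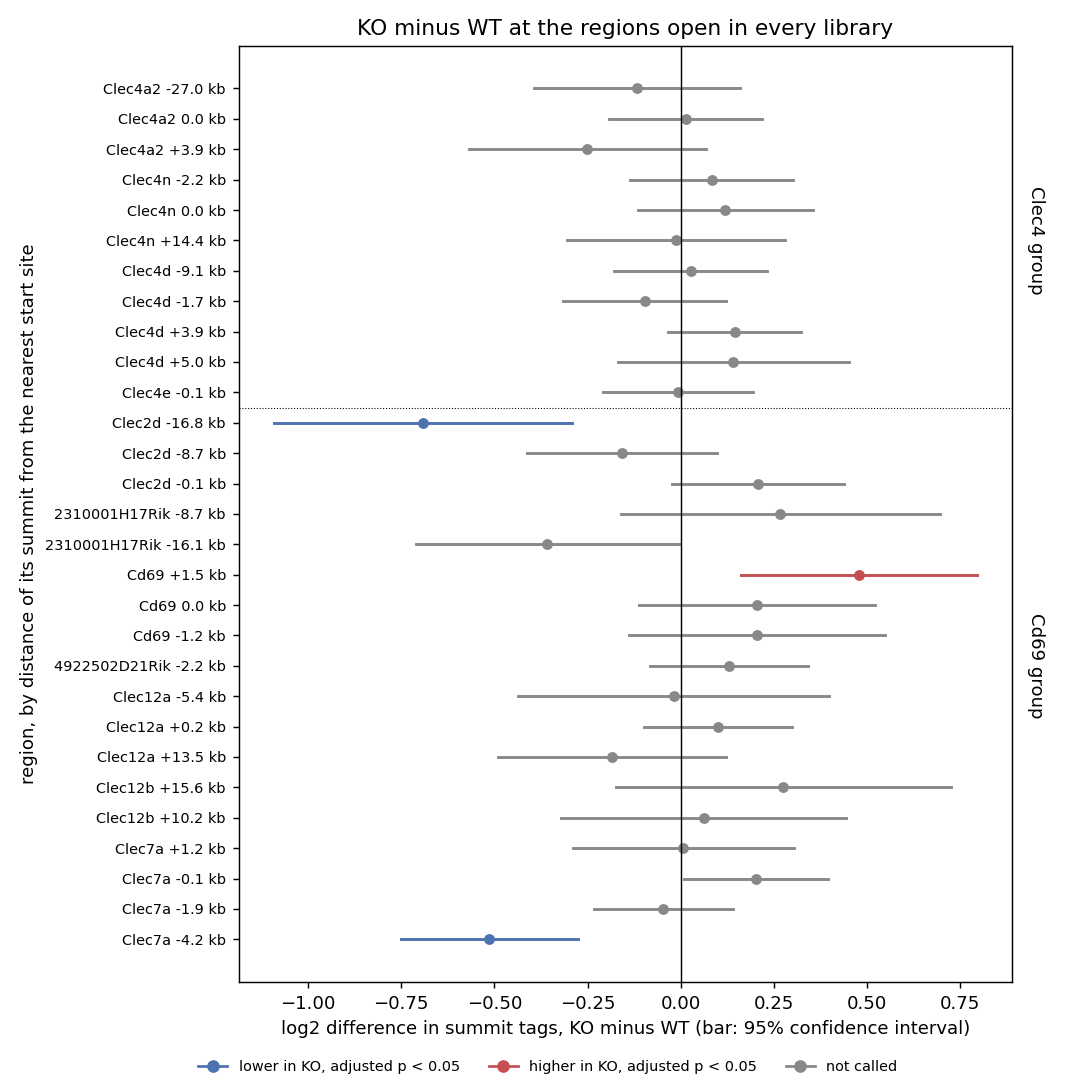
Log2 difference in summit tags, KO minus WT (x axis), at the 29 regions open in every library, in chromosomal order with the Clec4 group above the dotted line, each with its 95% confidence interval. The 3 called regions, near Clec2d, Cd69 and Clec7a, are all in the lower group and reach from -0.69 to 0.48, while the 11 regions of the Clec4 group lie between -0.25 and 0.14.

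The smallest adjusted p was found 4.2 kb upstream of Clec7a, in intergenic DNA (chr6:129476838-129477193). The region had 90, 96, 70 and 67 tags in KO and 107, 144, 165 and 121 in WT. Every KO library was below every WT library, also after scaling (86.2 ± 8.69 against 125 ± 23.0 tags, SD, n = 4 each). KO was 0.70 times WT, a log2 difference of -0.51 ± 0.12 (SE, limma, adjusted p = 0.00189; exact two-sided permutation p = 0.0286, the smallest that 4 against 4 allows). The call held with KO 1_2 and KO 1_3 as 1 sample (adjusted p = 0.00235). The other regions of Clec7a open in every library were not called. Its start site, given above, and regions 1.9 kb upstream (171, 168, 159 and 147 tags in KO against 194, 205, 220 and 158 in WT) and in an intron 1.2 kb inside the gene (53, 72, 58 and 43 against 51, 82, 78 and 52) had log2 differences of 0.20, -0.05 and 0.01. Whether the upstream region differs from these neighbours in its response was not tested.

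Upstream of Clec2d, at 16.8 kb in intergenic DNA (chr6:129163628-129164038), a weaker region also fell in KO. It had 21, 15, 16 and 24 tags in KO and 33, 48, 30 and 33 in WT. Raw tags of the genotypes were apart, but after scaling KO 3 stood above WT 3, and the means were 20.6 ± 5.72 and 33.1 ± 4.36 tags (SD, n = 4 each). KO was 0.62 times WT, a log2 difference of -0.69 ± 0.20 (SE, limma, adjusted p = 0.0142; exact permutation p = 0.0571). The call held with KO 1_2 and KO 1_3 as 1 sample (adjusted p = 0.0363) and was lost when the WT libraries of these numbers were averaged too (0.0573), when KO 1_3 was left out (0.0713), or when regions with absent peaks entered the fit at the smallest called summit (0.0990). A region 8.7 kb upstream of Clec2d had 75, 71, 69 and 82 tags in KO and 102, 140, 86 and 69 in WT, with overlapping groups and a log2 difference of -0.16 (adjusted p = 0.454).

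The single region called higher in KO lay 1.5 kb inside Cd69, in an intron (chr6:129273541-129274126). It had 88, 58, 56 and 47 tags in KO and 47, 50, 65 and 42 in WT. The groups overlapped, and KO 1_2 was the highest of the 8 libraries (66.3 ± 14.5 against 47.4 ± 9.18 scaled tags, SD, n = 4 each). KO was 1.39 times WT, a log2 difference of 0.48 ± 0.16 (SE, limma, adjusted p = 0.0354; exact permutation p = 0.0857). The call was lost with KO 1_2 and KO 1_3 as 1 sample (adjusted p = 0.0805), with total tags (0.0533) or the genomic background (0.263) as depth, with absent peaks elsewhere set to the smallest called summit (0.129) and without KO 1_2, KO 2, WT 1_2 or WT 1_3 (0.214, 0.0591, 0.0735 and 0.148).

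Around Cd69 the remaining regions open in every library went in both directions. A region 1.2 kb upstream of the start site had 41, 51, 45 and 31 tags in KO and 31, 64, 43 and 35 in WT, with a log2 difference of 0.20 (adjusted p = 0.472). Another, 12.8 kb past the end of the gene (chr6:129254264-129254723), had 24, 34, 26 and 27 tags in KO and 37, 55, 39 and 36 in WT. Every KO library was below every WT library there, raw and scaled, and the exact permutation p was again 0.0286, but limma gave a log2 difference of -0.36 with an adjusted p of 0.184, so the region was not called. Between the genes of this group, the regions nearest Clec12a were not called, among them one 13.5 kb inside the gene with 39, 53, 47 and 47 tags in KO and 59, 66, 73 and 49 in WT (log2 difference -0.19, adjusted p = 0.467).

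**Figure D3:**
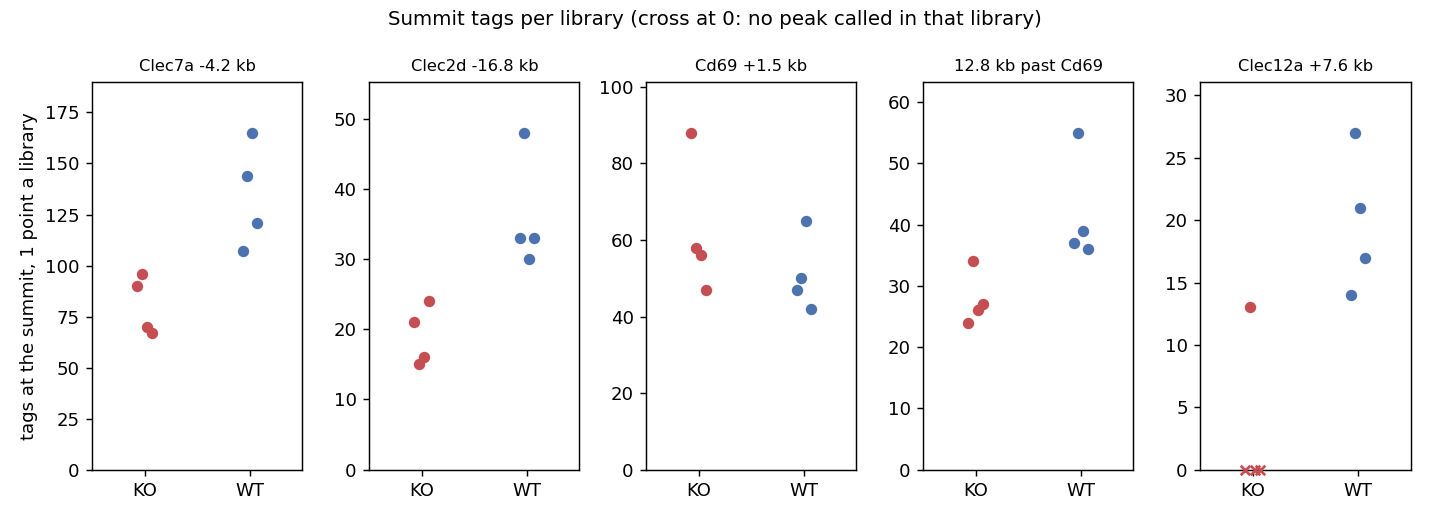
Tags at the summit in each library (y axes, linear, from 0, each panel with its own range) for the 3 called regions, the region past Cd69 and the intron region of Clec12a, with a cross at 0 where no peak was called. Tags are raw, not scaled. KO and WT points are apart upstream of Clec7a, upstream of Clec2d and past Cd69, they overlap in the Cd69 intron, and 3 KO libraries have no peak at Clec12a. After scaling, KO 3 stood above WT 3 upstream of Clec2d, so the groups overlapped there.

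In the Clec4 group 0 of the 11 tested regions were called by limma, against 12.8% over all regions. With only 11 regions, a count of 0 is close to that share. By limma 0 had an unadjusted p under 0.05 and 0 passed by permutation, and the shares of all regions under these criteria were not worked out. Their log2 differences ran from -0.25 to 0.14, with 6 positive and 5 negative. The lowest was 3.9 kb inside Clec4a2, with 49, 40, 35 and 30 tags in KO and 52, 69, 54 and 39 in WT (adjusted p = 0.321). Regions 2.2 kb upstream of Clec4n (105 to 133 tags in KO, 95 to 192 in WT) and 9.1 kb upstream of Clec4d (116 to 136 and 137 to 149) had differences of 0.08 and 0.03. A difference between the 2 gene groups was not tested.

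No region was open in all 4 libraries of one genotype and none of the other, a pattern found in 1.1% of the 72711 regions found in 2 or more libraries. Of the 42 such regions near these genes, 29 (69.0%) were open in all 8 libraries, against 65.3% over the genome. Of the other 13, which had 11 to 47 tags, 6 had a peak in more WT libraries, 1 in more KO libraries and 6 in equal numbers. Over the genome 25212 regions were found in 2 to 7 libraries. Of these, 13025 had a peak in more WT libraries, 6962 in more KO libraries and 5225 in equal numbers. More WT than KO libraries was thus the commoner pattern genome-wide as well. Single libraries gave 5 more regions of 12 to 31 tags, 4 in WT and 1 in KO. In all, 33 to 37 of the 47 regions had a peak in a KO library and 34 to 41 in a WT library.

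The intron region of Clec12a shown above, 7.6 kb from the start site (chr6:129357348-129357734), was the only one with a peak in at least 3 more libraries of one genotype, a pattern found in 4.66% of regions over the genome. It had 14, 27, 21 and 17 tags in the WT libraries, 13 tags in KO 1_3 and no peak in KO 1_2, KO 2 or KO 3. Without KO 1_3 it would count as open in WT only. With absent peaks set to the smallest called summit of the library, its log2 difference was -0.93 ± 0.27 (SE, limma, adjusted p = 0.0560), so it was not called there. Its window held the one DR1 match among the 42, with 2 mismatches, a match found in 4.13% of windows over the genome. A link between the match and the missing peaks was not tested. At tag counts this close to the smallest summits, a missing peak says only that the threshold of the caller was not reached. Clec12a itself, an inhibitory receptor gene, was open at its start site in all 8 libraries.

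A region 9.1 kb upstream of Cd69 had peaks in 1 KO library (14 tags) and 3 WT libraries (15 to 17 tags), and one 19.4 kb upstream of Clec2d in 2 WT libraries (13 and 18 tags). At 19.6 kb from the Clec2d start site, all 4 KO libraries (14 to 20 tags) and 3 WT libraries (14 to 36 tags) had a peak. The largest value there was in WT 1_3, and WT 4 alone had no peak.

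**Figure D4:**
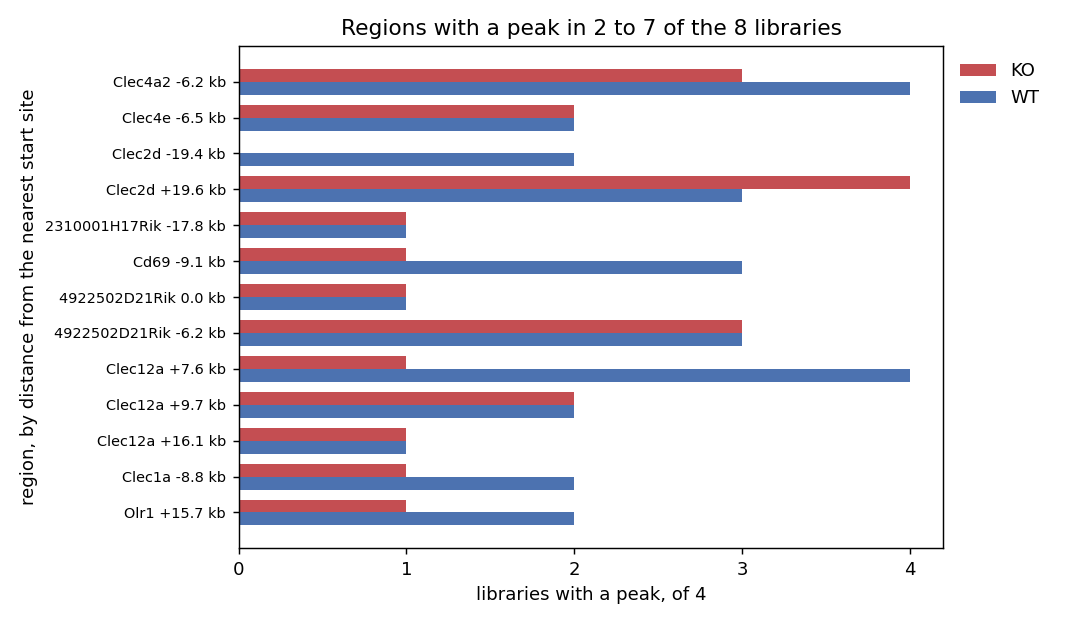
Number of KO and WT libraries with a peak (x axis, 0 to 4) for the 13 regions found in 2 to 7 libraries, in chromosomal order. Only the Clec12a intron region differs by 3 libraries, with 1 KO and 4 WT.

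By sequence the 42 windows were searched for 7 motifs on both strands within 100 bases of the summit. The C/EBP core was in 12 (28.6%, against 14.7% of all windows), the PU.1 core in 20 (47.6% against 38.1%), the RUNX core in 13 (31.0% against 23.1%) and AP-1 (TGANTCA) in 8 (19.0% against 11.9%). The AGGTCA hexamer was in 6 (14.3% against 15.1%) and NF-κB (GGGANTTCC) in 0 (against 1.52%). Of the 3 called windows, none held the hexamer or a DR1 at up to 2 mismatches. PU.1 and C/EBP cores are typical of macrophage enhancers, and these shares are descriptions of 42 windows, some of them neighbours.

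The start-site region of Cd69 was compared with those of 11661 protein-coding genes over the 8 libraries. The most alike in scaled log2 tags were Gm28041 and Zfp456, which share 1 region (Pearson r = 0.978), and Gm43720 (r = 0.947), and 19 genes were above 0.9. These correlations describe 8 libraries that share their scaling and carry no test.

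Other lectin receptor genes were described in the same way. Of 25 genes listed, 12 had a peak at the start site, in each case in all 8 libraries. Beyond the regions shared with the genes above, 72 regions were tested around them and 7 (9.72%) were called, 6 lower and 1 higher in KO, against the same background of 12.8%. An intron region of Mrc1, the mannose receptor gene (chr2:14272009-14272553), had 86, 86, 68 and 65 tags in KO and 111, 159, 128 and 122 in WT (log2 difference -0.55, adjusted p = 0.000411). The start site of Clec4b1, a neighbour of the Clec4 group (chr6:123049723-123050395), had 114, 94, 90 and 78 tags in KO and 120, 198, 154 and 98 in WT (-0.35, adjusted p = 0.0282). A second intron region of Mrc1 fell by 0.64 and regions near Clec4a3 fell by 0.68 and 0.74 on the log2 scale. The one higher region was near Klrb1c, a receptor gene of the family that binds Clec2d, with 37, 42, 42 and 40 tags in KO and 26, 37, 37 and 24 in WT (0.61, adjusted p = 0.0133).

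The genes that carry the receptors' signals had open start sites throughout. All 18 listed, among them Syk, Card9, Fcer1g and Tyrobp, had a peak there in all 8 libraries. Of 161 regions tested around them 13 (8.07%) were called, 7 higher and 6 lower in KO, against 12.8% of all regions. An intron of Nfkb1, which encodes an NF-κB subunit (chr3:135602543-135603138), had 72, 43, 66 and 60 tags in KO and 114, 128, 112 and 89 in WT (log2 difference -0.67, adjusted p = 0.000372). An intron of Inpp5d, a phosphatase that limits receptor signals (chr1:87640281-87640784), had 172, 139, 157 and 128 tags in KO and 123, 154, 137 and 109 in WT (0.40, adjusted p = 0.00342). At Lyn, a Src family kinase gene, 2 regions fell by 0.63 and 0.56 on the log2 scale, and another in its window, within 2210414B05Rik (chr4:3659924-3660342), rose by 0.46 (limma, adjusted p = 0.0224). An intron region of Plcg2, a phospholipase gene downstream of Syk, fell by 0.68, and a region near Ptpn11, a tyrosine phosphatase gene, rose by 0.77. No region of either list was open in one genotype only.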

How the data were processed

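ATAC-seq peaks of 8 libraries of alveolar macrophages (4 KO, 4 WT) were analysed. Groups and numbers came from the sample titles. Per the study's methods, the authors used Cutadapt for trimming and Bowtie2 for alignment to mm10, left out duplicates and low-quality pairs, and called peaks in each library with MACS3 (tags extended to 200 bp, q-value 0.05). Replicates were not pooled. Each deposited list gives the fold of the summit over local background, its −log10 p-value and −log10 q-value, and a score, which the authors' caller rounds for display and which was not used. Because the fold and p-value follow from the number of tags and the background under a Poisson model, tags were worked back as whole numbers; 100% of p-values were recovered within a relative error of 1e-05. Only summits of called peaks are known, so depth outside peaks and read counts were not used, and intervals cover the spread between libraries.

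The members and lists were chosen with earlier results of these data known. Peaks sharing 1 base were merged. log2(tags + 0.5), centred on each library's median over the 47499 regions open in all 8 libraries, was compared with limma 3.58.1 (R 4.3.3, trended variance, Benjamini-Hochberg adjustment over all regions) and, for single regions, with the exact two-sided permutation test over 70 labelings. Scripts were tested on simulated tags. The text names all 8 genes and gives per-library tags for start-site regions, called regions and regions that differ by at least 3 libraries; from the other lists it names the 6 called regions of smallest adjusted p. The Lyn region that rose and regions past Cd69, upstream of Clec2d and within Clec12a, Clec4a2 and Clec7a were named after their values were seen. Gene models were the basic set of GENCODE M21, in which Clec7a is typed as a polymorphic pseudogene; promoter sequences were from RefSeq. Peaks on all 20 chromosomes used lay within the lengths of GRCm38. The study compared read counts between genotypes, a fit that was not made here.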

Additional observations from a re-analysis of the deposited data

Results flagged for a closer look

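Among 22 sets of 4 libraries at 11 regions, 1 had a library far from the others: at the Cd69 start site WT 3 had 36.6 scaled tags (40 raw), against 44.0 to 45.5 in the other WT libraries. Chance alone would flag about 1 in 20 sets.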

How the results depend on the processing

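The count of 3 called regions stayed within 1.5 times (2 or 3) under 16 of 19 alternatives and fell to 1, the region upstream of Clec7a, under 3: with absent peaks set to the smallest called summit, with libraries 1_2 and 1_3 averaged in both genotypes, and in the shared numbers without the block. Leaving out each library gave 2 to 3. The Clec7a region was called in all 18 of its alternatives (log2 difference -0.63 to -0.42, adjusted p 0.000841 to 0.0322), the Clec2d region in 12 of 17 (-0.86 to -0.56, 0.00412 to 0.0990) and the Cd69 intron region in 8 of 18 (0.34 to 0.59, 0.0164 to 0.263). No called region changed sign. The region past Cd69 and the 7 start-site regions were called in none, though the sign changed in 2, 7 and 3 alternatives at the start sites of Clec12a, Clec4a2 and Clec4e. The numbers 1_2, 1_3 and 3 occur in both genotypes. Same-numbered libraries deviated together weakly (r = 0.0555, 0.116 and 0.0368), but more than any other pair of a KO and a WT library (-0.0673 to 0.0322). The labels do not say whether they are pairs, and the main fit did not take them as pairs. With the replicate block, 2 member regions were called (1 lower, 1 higher), against 1 without it in the same libraries. Over all regions it called 6904, against 5272 in the same libraries without it (6096 in all 8). The Clec2d call was lost in these libraries both with the block (adjusted p = 0.0624) and without it (0.0862), and the Cd69 call was lost without it (0.0537). The background scaling called 2566 over all regions. The count of regions open in one genotype only was 0 under 12 of 13 alternatives and 0 to 1 when a library was left out, the 1 being Clec12a without KO 1_3. Treating KO 1_2 and KO 1_3 as 1 sample, and the shared numbers without the block, were chosen after seeing the data. Summits of 6 to 9 tags limit what a missing peak can show.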
